A study of Mus musculus with 37 samples.

Results

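The transcripts described here belong to the heat shock proteins and their J-domain partners, measured in the gastrocnemius, a calf muscle, of young mice with and without Nampt in their muscle. The group was defined by name and level alone, as the protein-coding genes whose mouse symbol starts with Hsp or Dnaj and whose mean level over all 37 libraries was at least 1 CPM, the counts of a gene scaled to a fixed library total. Of 75 protein-coding genes with such a symbol, 66 met this rule, out of 50686 genes in the table, and all 66 passed the filter on low counts. Just inside the threshold lay Hspbap1 at 3.02 CPM and Dnajc24 at 3.18 CPM, and just outside it lay Dnajb13 at 0.496 CPM and Dnajc6 at 0.422 CPM. By symbol the 66 comprised 14 genes of the Hsp70 family, 3 of the Hsp90 family, 7 small heat shock proteins and the 2 genes of the mitochondrial chaperonin. The rest were 37 J proteins (4 of class A, 9 of class B and 24 of class C) and 3 other genes with the prefix, Hspbp1, Hspbap1 and Hspg2. Among the last is Hspg2, which encodes perlecan, a proteoglycan of the basement membrane and no chaperone. Hspb11 carries a small heat shock protein symbol but encodes a subunit of the intraflagellar transport machinery.

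Heat shock proteins bind unfolded protein chains, and J proteins deliver such chains to Hsp70 and stimulate its ATPase. Each compartment has its own set, with Hspa8, Hspa1a and the Hsp90 proteins in the cytosol, Hspa5 and Hsp90b1 in the endoplasmic reticulum, and Hspa9 with the chaperonin of Hspd1 and Hspe1 in the mitochondrial matrix. Muscle fibres are rich in small heat shock proteins, which hold proteins of the contractile lattice in a state from which other chaperones can refold them.

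The knockout mice lack Nampt, the enzyme that sets the pace of NAD salvage, in skeletal muscle. The wild-type groups (WT) held 6 libraries at 2 weeks of age, 6 at 4 weeks, 2 at 6 weeks and 5 at 8 weeks. The knockout groups held 5, 5, 2 and 6 libraries at the same ages. Each library came from 1 numbered animal, with no treatment named. Sex was not collected at 2 weeks. At 4 weeks wild-type animals 1, 3 and 4 and knockout animal 11 were labelled female. Knockout animal 19 at 6 weeks and wild-type animal 35 at 8 weeks were labelled female too. All others from 4 weeks on were labelled male, so sex was uneven between genotypes. A p-value sets a difference against the spread between animals within groups. That spread was estimated over all 37 libraries together, and not from the groups compared alone. The strain, the promoter that drives the deletion and whether the wild-type mice carried an unrecombined allele are not given in the sources used here. In whole muscle, fewer cells of a type and less RNA per cell cannot be told apart.

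Total counts ran from 5192700 to 23134727 per library, with a median of 16827002. Nampt fell in the knockout at every age, from 204 ± 27.5 CPM (SD, n = 5) in wild type to 49.3 ± 3.4 CPM (SD, n = 6) in knockout at 8 weeks, and no knockout library reached a wild-type library of its age. Markers of skeletal muscle fibres were present in every library, with a summed level of 40500 to 229000 CPM. In 5 libraries over 5% of counts fell on nuclear rRNA genes, namely wild-type animals 3 and 4 and knockout animal 8 at 4 weeks and wild-type animals 34 and 35 at 8 weeks, with 1.24% or less elsewhere. Sequencing pool A held no 8-week wild-type library other than animals 34 and 35. Wild-type animal 36 carried 18900 CPM of slow-fibre markers, above every other library, and in 3 libraries the sex-linked genes did not match the sex label.

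The promoters of 2 sets of members are printed because they carry the elements that textbooks assign to the reticulum stress response and to the heat shock response. Windows of 250 bases before to 50 bases after the start were available from RefSeq (GRCm38.p6) for 54 of the 66 members and were searched on both strands. The reticulum stress element, a CCAAT box followed after 9 bases by CCACG, occurred in 39 of all 32851 windows (0.119%). Of the 70 windows of members it occurred in 3, those of Hspa5, Hsp90b1 and Dnajc3. Capitals mark the element, which in Hsp90b1 occurs once on each strand. The stretch of Hspa5 is limited to 30 bases because it lies in an annotated exon.
Hspa5 (chr2:34772020-34772049, plus strand): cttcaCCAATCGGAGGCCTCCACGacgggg
Hsp90b1 (chr10:86705510-86705674, minus strand): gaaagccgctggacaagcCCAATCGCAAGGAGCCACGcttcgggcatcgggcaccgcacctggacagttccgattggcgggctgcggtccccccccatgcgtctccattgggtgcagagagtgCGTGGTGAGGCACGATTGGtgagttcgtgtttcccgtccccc
Dnajc3 (chr14:118937772-118937931, plus strand): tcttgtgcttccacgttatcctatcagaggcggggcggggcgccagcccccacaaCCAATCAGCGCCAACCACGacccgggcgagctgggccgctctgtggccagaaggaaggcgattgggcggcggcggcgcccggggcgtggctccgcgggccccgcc

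The heat shock element consists of alternating GAA and TTC units with 2 bases between them. A pair of units, in either order (GAANNTTC or TTCNNGAA), occurred in 15.056% of all windows and in 17 of the 70 windows of members, which belong to 15 members. A run of 3 units occurred in 0.603% of all windows and in 6 of these 70, which belong to Hspd1, Hspe1, Hsph1 and Dnajb6. Runs of 3 units are counted among the pairs as well. Hspd1 and Hspe1 lie head to head on chromosome 1 with 216 bases between their starts, so their windows share the same site, shown here in 30 bases on the strand of Hspd1. There 2 runs of 3 units overlap, and the capitals span both, 4 units in all. Hspa1b and Hspb1 are shown as inducible members with a pair that rose at 8 weeks, as did Hspa1a.
Hspd1 (chr1:55088053-55088082, minus strand): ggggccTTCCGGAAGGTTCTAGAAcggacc
Hspa1b (chr17:34959239-34959398, minus strand): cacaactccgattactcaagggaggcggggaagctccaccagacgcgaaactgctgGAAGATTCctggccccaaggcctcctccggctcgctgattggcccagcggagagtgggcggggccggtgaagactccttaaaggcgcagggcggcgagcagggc
Hspb1 (chr5:135887759-135887918, plus strand): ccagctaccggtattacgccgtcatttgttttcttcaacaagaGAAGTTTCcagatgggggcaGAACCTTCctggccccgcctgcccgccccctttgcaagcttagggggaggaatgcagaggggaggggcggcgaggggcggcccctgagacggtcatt

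In all, 38 of the 66 members differed between knockout and wild type at 8 weeks, and at most 5 did at any younger age. A member was called when its adjusted p in edgeR's quasi-likelihood test lay below 0.05 after Benjamini-Hochberg adjustment over all 16728 genes tested. At 8 weeks 11 of 66 members rose (16.7%) and 27 fell (40.9%), where 26.2% of all genes tested rose and 26.3% fell, and the median log2 fold change was -0.13 over the members and 0.03 over all genes tested. At 2 weeks no member was called, where 0.0359% of all genes rose and 0.0239% fell, and 3 members had an unadjusted p under 0.05 in edgeR while DESeq2 also called 0. At 4 weeks 4 members rose and 1 fell, beside 2.46% and 3.19% of all genes. At 6 weeks, with 2 animals in each group, 0 rose and 3 fell, beside 5.33% and 4.34% of all genes, and 10 members had an unadjusted p under 0.05.

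These splits depend on how libraries are scaled. With library sizes alone, without TMM factors, the median of all genes tested at 8 weeks moved from 0.03 to 0.82. The members then split into 45 higher and 1 lower, 46 of 66 called, beside 11219 of 16728 genes tested. Of the 27 members called lower, 23 then had a positive log2 fold change, the exceptions being Dnajc21, Dnajc28, Hspa1l and Dnajc27, while all 11 called higher kept their sign. The 4-week split became 3 higher and 0 lower, and no member was called at 6 weeks, with no called member of either age changing sign. Of all 16728 genes tested 120 were called at 4 weeks and 330 at 6 weeks under that scaling. Directions below are relative to the bulk of genes as TMM centres it. The members' share of all counts, which is scaled by library size alone, was 0.272% and 0.284% in rRNA-rich wild-type animals 34 and 35, 0.541% to 0.726% in the other 3 wild-type libraries at 8 weeks and 0.795% to 1.13% in the knockout libraries.

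**Figure D1:**
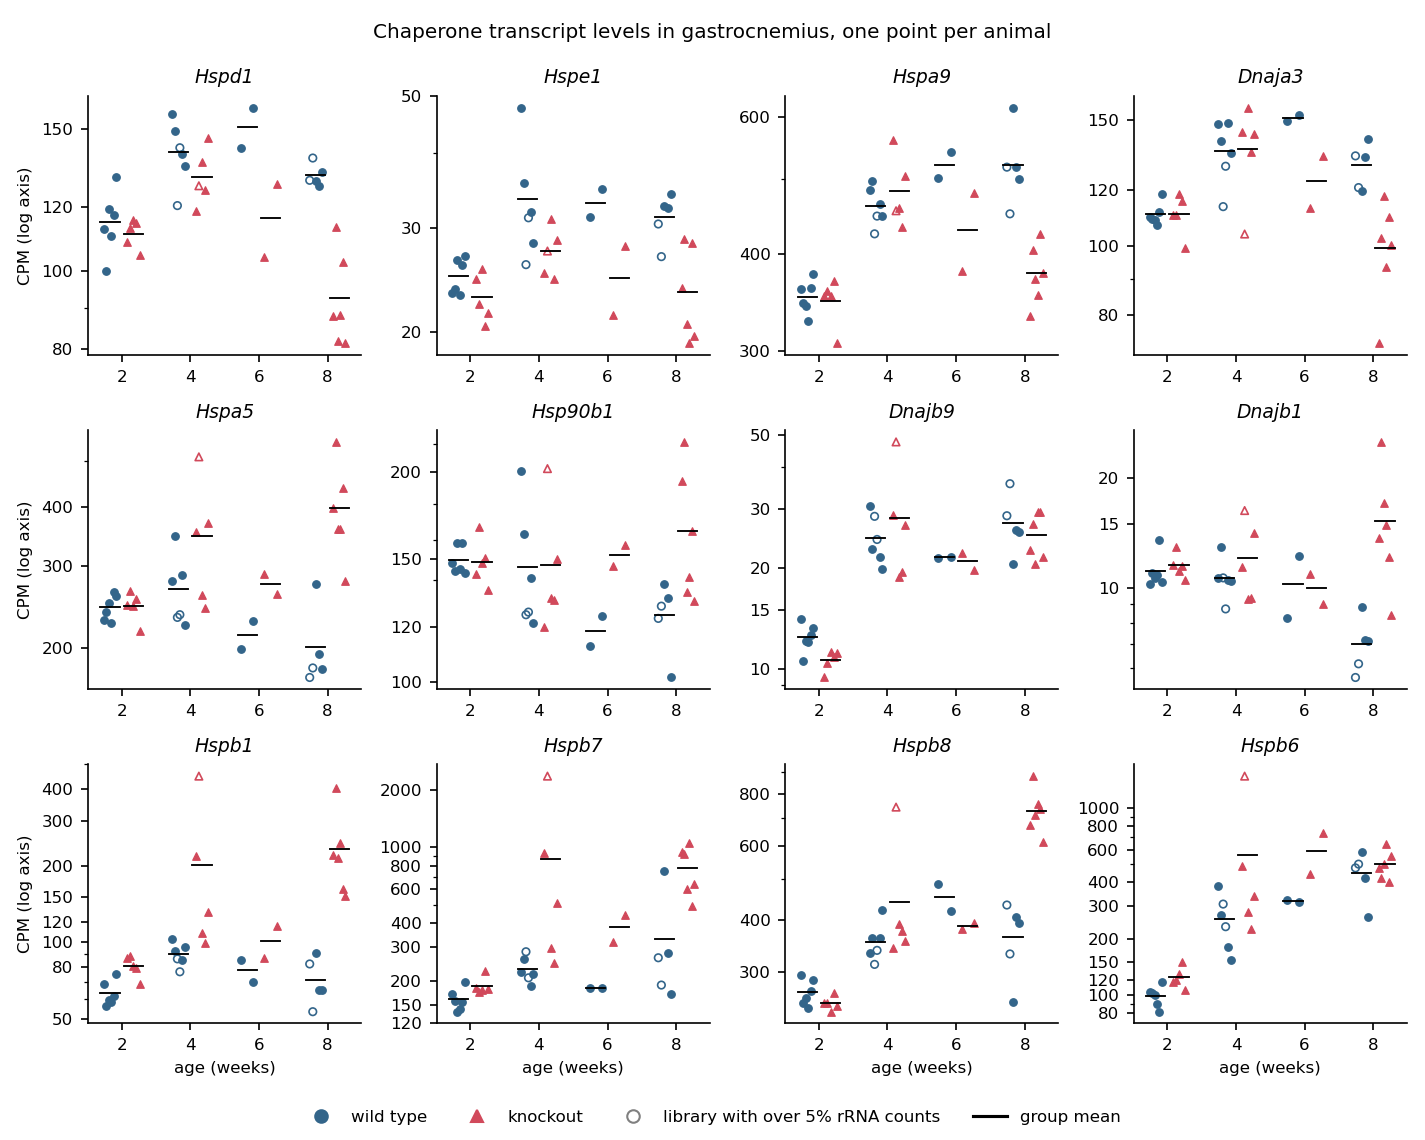
CPM on a log axis against age in weeks for 12 members, with 1 point per animal, circles for wild type, triangles for knockout, open symbols for the 5 rRNA-rich libraries and black bars for group means. At 8 weeks the knockout libraries lie below wild type for Hspd1, from 81.4 to 113 CPM, and above it for Hspb8, from 615 to 881 CPM, after TMM scaling. With library sizes alone the Hspd1 difference has the opposite sign.

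The 4 members of the mitochondrial matrix, Hspd1, Hspe1, Hspa9 and Dnaja3, were all called lower in knockout muscle at 8 weeks, beside 26.3% of all genes tested. Their median log2 fold change was -0.45, but all 4 had the opposite sign, 0.36 to 0.46, with library sizes alone. Those values lay below the all-gene median of 0.82 under the same scaling. Hspd1, the barrel-forming chaperonin subunit, was at 128, 129, 129.5, 132.5 and 138 CPM in the 5 wild-type libraries and from 81.4 to 113 CPM, with a median of 88.05 CPM, in the 6 knockout libraries. Every knockout library lay below every wild-type library. The group means were 131 ± 4.1 CPM (SD, n = 5) and 92.6 ± 12.8 CPM (SD, n = 6), a log2 fold change of -0.50 (SE 0.09, adjusted p = 1.19e-05 in edgeR). Of the 38-base words in the exons of Hspd1, 48.15% also occur in other genes, as do 27.28% of those of Hspe1, so their counts are uncertain.

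Hspa9, the mitochondrial Hsp70, was at 450, 499.6, 517, 517.5 and 617 CPM in wild type and from 333 to 424 CPM, with a median of 375 CPM, in knockout at 8 weeks. The groups did not overlap, and the highest wild-type value belonged to animal 36. The log2 fold change was -0.46 (SE 0.09, adjusted p = 5.26e-05 in edgeR). Hspe1, the lid of the chaperonin, was at 26.8, 30.4, 32.4, 32.6 and 34.2 CPM in wild type and from 19.1 to 28.7 CPM, with a median of 22.2 CPM, in knockout. Here rRNA-rich wild-type animal 35 lay within the knockout range. The log2 fold change of Hspe1 was -0.43 (SE 0.12, adjusted p = 0.00401 in edgeR). Dnaja3, the J protein that serves Hspa9, ran from 119.5 to 142 CPM in wild type and from 73.1 to 117 CPM in knockout, without overlap. Its log2 fold change was -0.38 (SE 0.10, adjusted p = 0.0014 in edgeR).

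Within pool B alone the 8-week log2 fold changes of these genes were -0.54 for Hspd1, -0.52 for Hspa9, -0.59 for Hspe1 and -0.40 for Dnaja3, all with an adjusted p below 0.05. Within pool A alone, where the wild-type side was rRNA-rich animals 34 and 35 only, they were -0.44, -0.32, -0.16 and -0.32, and none passed. Without the 5 rRNA-rich libraries all 4 stayed called, at -0.48, -0.56, -0.54 and -0.42. None of the 4 was called at 2, 4 or 6 weeks. At 6 weeks Hspd1 was at 142 and 159 CPM in wild type and 104 and 128 CPM in knockout, a log2 difference of -0.37 (SE 0.14) with an adjusted p of 0.0837 in edgeR. The 8-week effect was more negative than the 4-week effect for Hspa9, by 0.53 (SE 0.13, adjusted p = 0.00207 in edgeR), for Hspd1, by 0.39 (adjusted p = 0.0159) and for Dnaja3, by 0.38 (adjusted p = 0.0352), where each of the 3 differences was positive with library sizes alone. The difference for Dnaja3 missed the threshold when any of 10 single libraries was left out, at an adjusted p of up to 0.0737. That for Hspd1 missed it without the 5 rRNA-rich libraries (-0.34, adjusted p = 0.0925 in edgeR). It also missed it without the filter on low counts (-0.37, adjusted p = 0.102) and within pool A (-0.27, adjusted p = 0.52). For Hspe1 the difference did not pass (-0.13, SE 0.18, adjusted p = 0.622).

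Among the 3 reticulum members, Hspa5 and Hsp90b1 rose at 8 weeks and Dnajb9 was not called, where 26.2% of all genes tested rose. Hspa5 encodes BiP, the Hsp70 of the reticulum lumen, and carries the reticulum stress element printed above. It was at 173, 180.4, 182, 195 and 274.5 CPM in wild type and from 278 to 550.4 CPM, with a median of 379 CPM, in knockout. All 6 knockout libraries lay above all 5 wild-type libraries, of which animal 36 was highest and close to knockout animal 44 at 278 CPM. The means were 201 ± 41.9 CPM (SD, n = 5) and 397 ± 91.8 CPM (SD, n = 6), a log2 fold change of 0.95 (SE 0.15, adjusted p = 4.27e-06 in edgeR). It was 1.36 within pool A and 0.71 within pool B.

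Hsp90b1, the reticulum Hsp90 also called GRP94, was at 101.5, 123, 128.5, 132 and 138 CPM in wild type and from 131 to 221 CPM, with a median of 153 CPM, in knockout at 8 weeks. The groups overlapped in the range of 131 to 138 CPM. Hsp90b1 had a log2 fold change of 0.38 (SE 0.13, adjusted p = 0.0144 in edgeR), and the call was lost without wild-type animal 38 (0.31, adjusted p = 0.0563), without knockout animal 40 (0.29, adjusted p = 0.0525), without the rRNA-rich libraries (0.32, adjusted p = 0.0726) and within pool A (0.60) or pool B (0.21) alone. Dnajb9, a reticulum J protein that restrains the sensor Ern1, ran from 20.5 to 35.7 CPM in wild type and from 20.6 to 29.4 CPM in knockout, with a log2 difference of -0.11 (SE 0.15, adjusted p = 0.578). Dnajc3, which carries the same promoter element as Hspa5, differed by -0.15 (SE 0.07, adjusted p = 0.0889).

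At 2 weeks Hspa5 ran from 226 to 263 CPM in wild type and from 217 to 265 CPM in knockout, and the groups overlapped. At 4 weeks the 5 knockout libraries held 244, 259.5, 353.5, 369 and 511.5 CPM against 225 to 347 CPM in wild type, and the highest value came from rRNA-rich animal 8. The log2 difference at that age was 0.38 (SE 0.15) with an adjusted p of 0.128 in edgeR. The 8-week effect on Hspa5 exceeded the 4-week effect by 0.57 (SE 0.21, adjusted p = 0.0433), a call that was lost when any of 11 single libraries was left out, at an adjusted p of up to 0.101, and with RLE size factors (adjusted p = 0.0535).

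**Figure D2:**
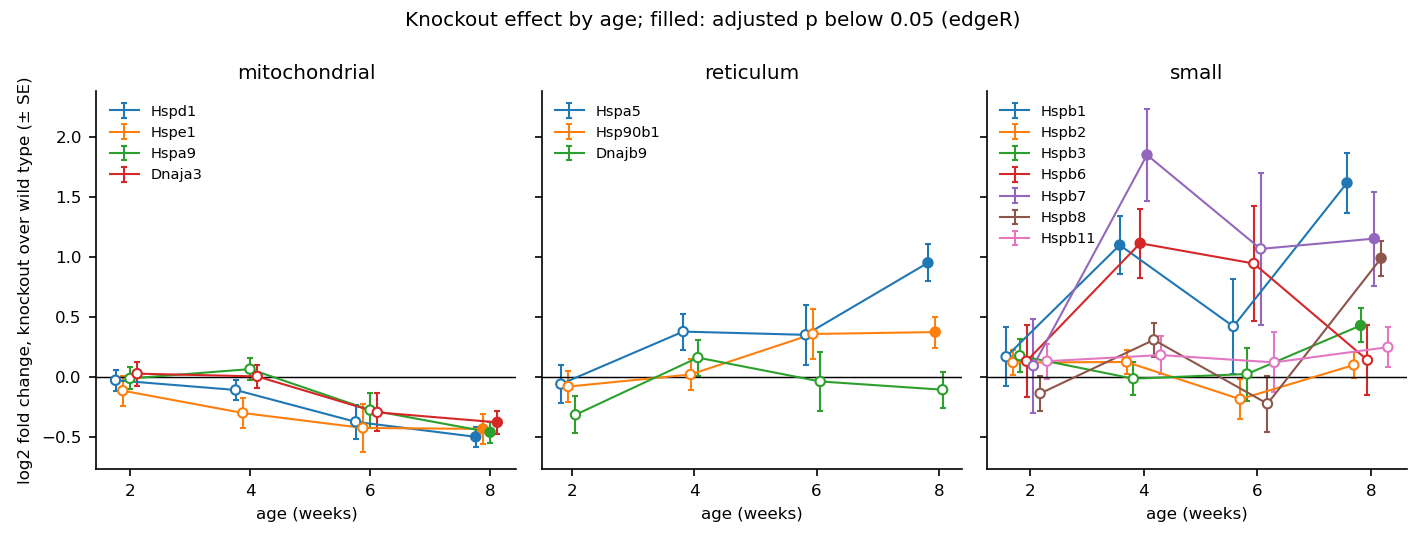
Log2 fold change of knockout over wild type with its SE at each age for the mitochondrial members, the reticulum members and the 7 genes named Hspb, with filled points for an adjusted p below 0.05 in edgeR. The mitochondrial members reach -0.38 to -0.50 at 8 weeks after TMM scaling and 0.36 to 0.46 with library sizes alone, while Hspa5 reaches 0.95 and Hspb1 1.62.

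Of the 7 genes named Hspb, 4 rose at 8 weeks (Hspb1, Hspb7, Hspb8 and Hspb3) and none fell, where 26.2% of all genes tested rose and 26.3% fell. Hspb8, which works with Bag3 in the removal of damaged proteins of the Z-disc, was at 254, 332, 394, 406 and 434 CPM in wild type and from 615 to 881 CPM, with a median of 722 CPM, in knockout. No knockout library came near the wild-type range, in which animal 36 was lowest. The means were 364 ± 71.9 CPM (SD, n = 5) and 728 ± 90 CPM (SD, n = 6), a log2 fold change of 0.99 (SE 0.14, adjusted p = 7.88e-07 in edgeR), with 1.04 within pool A and 0.98 within pool B. The 8-week effect on Hspb8 exceeded the 4-week effect by 0.68 (SE 0.20, adjusted p = 0.0109).

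Hspb1, also known as Hsp25, was at 53.3, 64.6, 64.8, 82.1 and 90.65 CPM in wild type and from 152 to 403 CPM, with a median of 217 CPM, in knockout at 8 weeks, again without overlap. The log2 fold change was 1.62 (SE 0.25, adjusted p = 3.42e-06 in edgeR), with 2.11 within pool A and 1.32 within pool B. Of the 38-base words in the exons of Hspb1, 53.4% also occur in other genes, so its counts are uncertain. The same holds for Hsp90aa1, with 49.79% of words shared, and for Hspa8, with 42.63%. Hspb7, which binds the thin filament and filamin C, was at 171, 190, 264, 279 and 747.5 CPM in wild type and from 494 to 1052 CPM in knockout. Slow-fibre-rich animal 36, at 747.5 CPM, was the only wild-type library inside the knockout range. The log2 fold change of Hspb7 was 1.16 (SE 0.39, adjusted p = 0.0146), and the call was lost without wild-type animal 35 (0.95, adjusted p = 0.0545) and without the 5 rRNA-rich libraries (0.81, adjusted p = 0.062), but held without these and animal 36 (1.65, adjusted p = 0.000417). Within pool A it was 1.93 and within pool B 0.85, not called (adjusted p = 0.147).

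Hspb3, the partner of Hspb2 in muscle, was at 16.5, 19.7, 20.1, 21.4 and 21.8 CPM in wild type and from 23.2 to 35 CPM in knockout, a log2 fold change of 0.43 (SE 0.14, adjusted p = 0.011). That call was lost without the rRNA-rich libraries (0.33, adjusted p = 0.0657) and within pool B (0.21, adjusted p = 0.256), and was 0.74 within pool A. Hspb2 differed by 0.10 (adjusted p = 0.445), Hspb6 by 0.14 (adjusted p = 0.711) and Hspb11 by 0.25 (adjusted p = 0.257). Exons of Hspb2 overlap those of Cryab on the opposite strand over 30.2% of their length. Per exon length, Hspb8, Hspb7, Hspb1 and Hspb6 had the highest levels of all members in 8-week knockout muscle, at 374, 280.2, 225.5 and 217 RPKM, which is CPM per kilobase of exon. In wild type Hsp90ab1 led at 259.5 RPKM, followed by Hspb6 at 195 RPKM, Hspb8 at 187 RPKM and Hspa8 at 122 RPKM.

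At 4 weeks 3 of the 5 called members were small heat shock proteins, and 1 library carried much of each difference. Hspb7 was at 249, 296.5, 508, 929 and 2350.0 CPM in knockout and from 188 to 283.5 CPM, with a median of 219 CPM, in wild type. The highest value belonged to knockout animal 8, in which rRNA genes held 29.3% of counts, and 4 of the 5 knockout libraries exceeded every wild-type library. Hspb7 had a log2 fold change of 1.85 (SE 0.39, adjusted p = 0.00496 in edgeR), and 1.13 (adjusted p = 0.0446) without animal 8. Hspb1 ran through 99, 109, 131, 218 and 450 CPM in knockout against 76.5 to 103 CPM in wild type, with a log2 fold change of 1.10 (SE 0.24, adjusted p = 0.00632), and 0.67 (adjusted p = 0.0436) without animal 8. Hspb6, which associates with actin and contractile proteins, ran through 225, 278.5, 340.4, 490.3 and 1483 CPM in knockout against 154 to 382 CPM in wild type, and its call (1.12, SE 0.29, adjusted p = 0.0191) was lost without animal 8 (0.46, adjusted p = 0.232).

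The other calls at 4 weeks were Dnaja4, a cytosolic J protein, at 0.63 (adjusted p = 0.0159), and Dnajc4 at -0.59 (adjusted p = 0.032). Both were lost without animal 8 (adjusted p = 0.094 and 0.115) or animal 7 (adjusted p = 0.0591 and 0.139), and Dnajc4 also without wild-type animal 1 (-0.40, adjusted p = 0.128). Exons of Dnaja4 overlap those of Wdr61 over 44.1% of their length. The number of members called at 4 weeks was 2 without knockout animal 8, 8 without knockout animal 10 and 0 without the 5 rRNA-rich libraries. In pool A, with knockout animals 7 and 8, the log2 difference of Hspb1 was 1.86 and that of Hspb7 was 2.72, and in pool B, with animals 10, 11 and 12, they were 0.41 and 0.80 and not called. At 6 weeks the 3 called members were Dnajc28 (-0.997, SE 0.24, adjusted p = 0.00816), Dnajb2 (-0.58, adjusted p = 0.0379) and Dnajc10 (-0.41, adjusted p = 0.0289). Without wild-type animal 16, wild-type animal 17 or knockout animal 20 the number called at 6 weeks was 0.

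Among cytosolic members, Hspa1a, Hspa1b, Dnajb1 and Hsp90aa1 rose at 8 weeks, and Hsph1 (-0.29, adjusted p = 0.136), Dnaja1 (-0.02, adjusted p = 0.904) and Dnajb4 (-0.001, adjusted p = 0.997) were not called. Hspa1b, a classic inducible Hsp70 whose promoter holds the pair of units shown above, was at 0.4345, 1.23, 1.84, 2.31 and 5.44 CPM in wild type and at 6.43, 16.1, 27.8, 27.9, 30.8 and 69.6 CPM in knockout. The groups did not overlap, and the lowest wild-type value rested on 1 count in rRNA-rich animal 34. This was a log2 fold change of 3.09 (SE 0.48, adjusted p = 4.96e-06 in edgeR), with 5.59 within pool A and 2.43 within pool B. Hspa1a, its near-identical neighbour, was at 0.924, 1.29, 1.32, 1.74 and 7.93 CPM in wild type and from 4.84 to 37.8 CPM in knockout, and animal 36 was the only wild-type library inside that range. Its log2 fold change was 2.16 (SE 0.48, adjusted p = 0.000407), with 4.21 within pool A and 1.44, not called, within pool B. Between 65.9% and 71.6% of the 38-base words of Hspa1a, Hspa1b and Hspa1l occur in another gene, so reads among them cannot be assigned with certainty.

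Dnajb1, the J protein that cooperates with inducible Hsp70, was at 5.65, 6.16, 7.11, 7.15 and 8.84 CPM in wild type and from 8.41 to 25.2 CPM in knockout, so that only knockout animal 44 lay below the highest wild-type library. On the log2 scale the rise was 1.0 (SE 0.18, adjusted p = 2.93e-05 in edgeR), with 1.71 within pool A and 0.59 within pool B. The inducible Hsp90 gene Hsp90aa1 was higher, at 57.3 ± 18.3 CPM (SD, n = 6) against 32.2 ± 6.59 CPM (SD, n = 5), with a log2 fold change of 0.76 (SE 0.17, adjusted p = 0.00027), with 1.26 within pool A and 0.40, not called, within pool B (adjusted p = 0.0944). Its constitutive relative Hsp90ab1 was lower, at 628 ± 49.2 CPM (SD, n = 6) against 778 ± 87.3 CPM (SD, n = 5), a log2 fold change of -0.32 (SE 0.09, adjusted p = 0.00436) that was 0.55 with library sizes alone. Hspa8, the constitutive cytosolic Hsp70, differed by 0.08 (SE 0.12, adjusted p = 0.598), and its companions Hsph1 and Hspa4, which act as nucleotide exchange factors, differed by -0.29 and 0.07 without passing.

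Knockout animal 40 was the highest of its group for Hspa1a, Hspa1b, Hspb1, Hspb8, Hspa5, Hsp90aa1 and Dnajb1, and animal 44 was the lowest for each of these 7. Of the named 8-week values, Hspa5, Hspa1b, Hspb1, Hspb8, Dnajb1, Dnajc21 and Hspg2 kept their call and direction under every alternative run, library sizes alone and each library left out included. Other members of the Hsp70 family fell. Hspa1l was at 7.7 to 13.1 CPM in wild type and 3.55 to 4.40 CPM in knockout, a log2 fold change of -1.25 (SE 0.16, adjusted p = 1.14e-07), though 71.9% of its exon length overlaps an antisense gene. Hspa12a and Hspa12b, distant relatives of Hsp70, fell by 0.53 (adjusted p = 0.0166) and 0.58 (adjusted p = 0.000428) on the log2 scale, and were at 0.26 and 0.23 with library sizes alone. Hspa12b is known from endothelium, and 4 of 5 endothelial markers fell as well, with a median log2 fold change of -0.49 (0.32 with library sizes alone), whose part in this result was not tested.

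**Figure D3:**
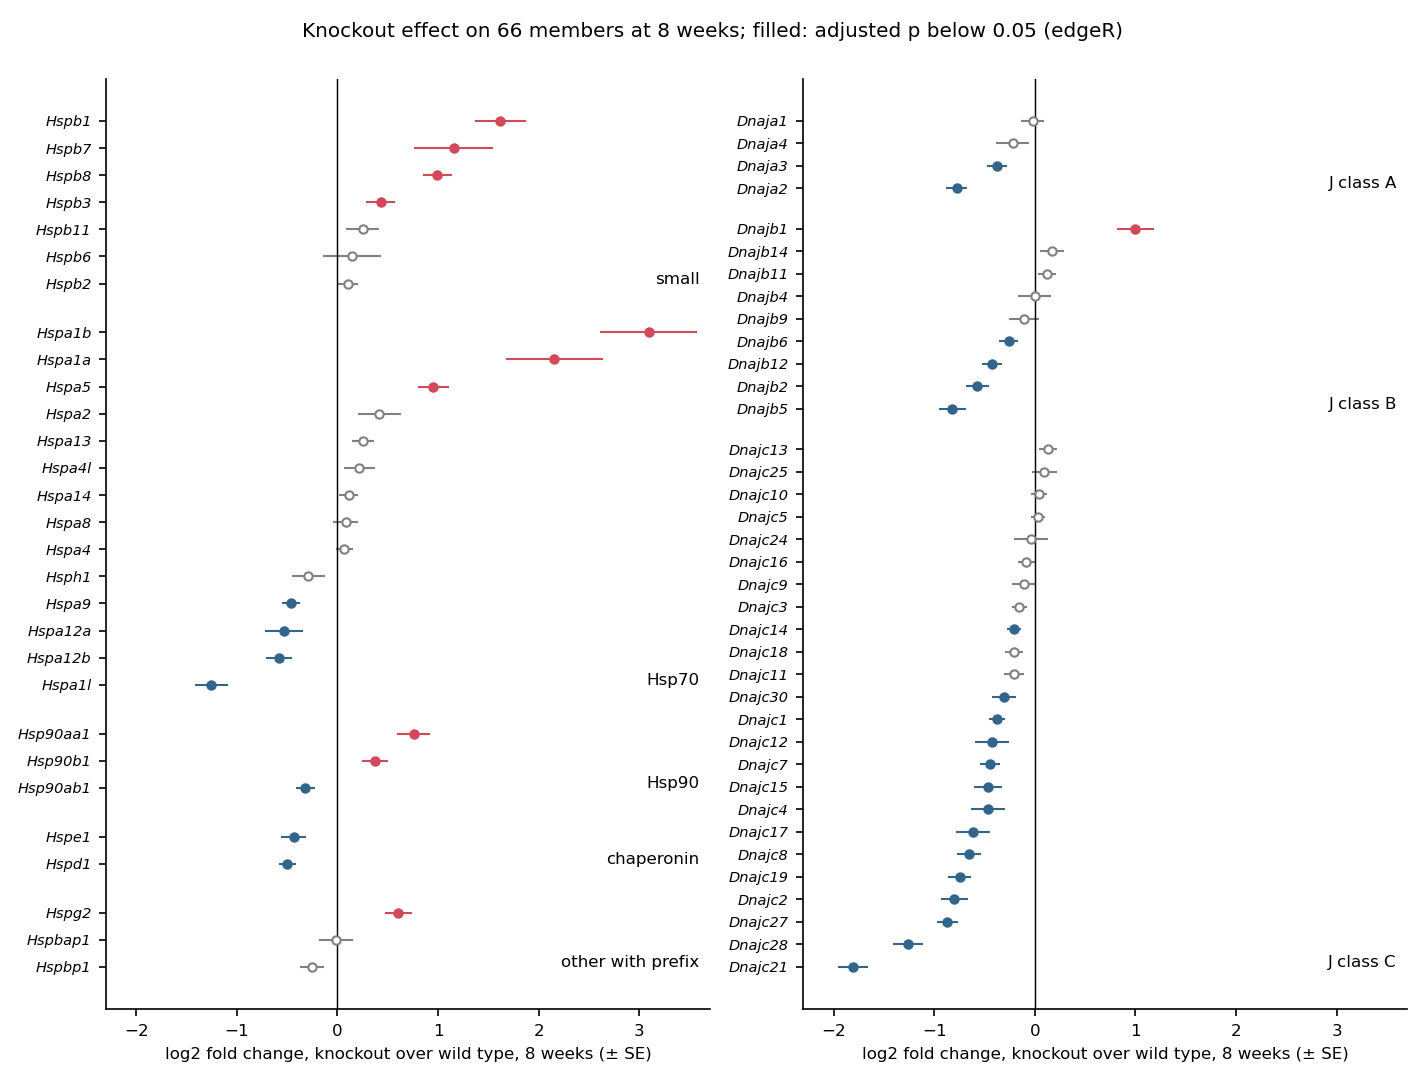
Log2 fold change of knockout over wild type at 8 weeks with its SE for all 66 members by class, filled where the adjusted p in edgeR lay below 0.05, red for higher and blue for lower. Class C J proteins lie mostly left of 0 after TMM scaling, from -1.81 to 0.13. With library sizes alone 4 of the 27 members called lower kept a negative value, and 1 member of 66 was called lower.

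Among J proteins, 20 of 37 fell at 8 weeks and 1, Dnajb1, rose, beside 26.3% and 26.2% of all genes tested, namely 2 of 4 in class A, 4 of 9 in class B and 14 of 24 in class C on the side of the falls, although with library sizes alone 17 of these 20 had the opposite sign and Dnajc21 was the member called lower. Dnajc21, a J protein of ribosome assembly, was at 65.1, 73.4, 90.2, 90.6 and 97.5 CPM in wild type and from 16.2 to 32 CPM, with a median of 24.2 CPM, in knockout. The highest knockout library reached less than the lowest wild-type library by a wide margin. The means were 83.4 ± 13.5 CPM (SD, n = 5) and 23.9 ± 5.36 CPM (SD, n = 6), a log2 fold change of -1.81 (SE 0.15, adjusted p = 4.13e-11 in edgeR), and -0.97 (adjusted p = 8.72e-05) with library sizes alone. Dnajc28 was at 28.9, 33, 33.8, 35 and 35.6 CPM in wild type and from 10.1 to 17.6 CPM in knockout, a log2 fold change of -1.26 (SE 0.15, adjusted p = 2.13e-08). It was among the 3 members called at 6 weeks too, where wild type held 33.4 and 37 CPM and knockout 15.1 and 20.3 CPM.

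Dnajc27, which joins a Rab-like GTPase to a J domain, was at 89.95 to 127 CPM in wild type and 45 to 71 CPM in knockout, a log2 fold change of -0.87 (SE 0.11, adjusted p = 4.4e-08). Dnajc2, a J protein bound to the ribosome, fell by 0.80 on the log2 scale (adjusted p = 9.54e-06), and Dnajc19, a subunit of the mitochondrial import motor, fell by 0.74 (adjusted p = 1.59e-06), but both had the opposite sign, at 0.03 and 0.08, with library sizes alone. Dnaja2, an abundant cytosolic co-chaperone of Hspa8, fell by 0.78 (adjusted p = 1.62e-07), Dnajb5 by 0.82 (adjusted p = 5.43e-06) and Dnajc8, a splicing factor, by 0.65 (adjusted p = 3.28e-05), and these 3 also changed sign with library sizes alone. Smaller falls were called for Dnajb6, a Z-disc J protein mutated in limb-girdle muscular dystrophy (-0.26, adjusted p = 0.0159), and for Dnajc15, a relative of Dnajc19 (-0.46, adjusted p = 0.00506), which were at 0.55 and 0.33 with library sizes alone. Dnajb2 was lower at 8 weeks (-0.57, adjusted p = 6.96e-05, and 0.28 with library sizes alone) as at 6 weeks. Dnaja1, Dnajb4 and Dnajc5 had log2 differences between -0.02 and 0.03 and were not called.

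The knockout effect at 8 weeks was also set against that at 4 weeks. Of 66 members, 6 had a more positive and 19 a more negative effect at 8 weeks, beside 13.5% and 13.8% of all genes tested. With library sizes alone 29 were more positive and 0 more negative, beside 7393 of 16728 genes called in either direction, and 14 of the 19 had the opposite sign. Dnajc21 had the most negative difference, at -1.46 (SE 0.21, adjusted p = 9.67e-06 in edgeR), and its 4-week values overlapped, at 39.6 to 62.65 CPM in knockout and 48.9 to 88.3 CPM in wild type. Beside Hspa5 and Hspb8, the more positive were Hspa1b (1.94, adjusted p = 0.0359), Dnajb1 (0.85, adjusted p = 0.0127), Hsp90aa1 (0.67, adjusted p = 0.0304) and Hspg2 (0.61, adjusted p = 0.0154). The call for Hspa1b was lost when any of 14 single libraries was left out, at an adjusted p of up to 0.0698, and that for Hsp90aa1 when any of 8 was left out, at up to 0.0818. Hspb7 and Hspb6 had differences of -0.70 (adjusted p = 0.354) and -0.97 (adjusted p = 0.0733) and were not called. Perlecan, encoded by Hspg2, rose at 8 weeks by 0.60 (SE 0.13, adjusted p = 0.000317), from 420.0 ± 58.5 CPM (SD, n = 5) to 636 ± 102 CPM (SD, n = 6), and knockout animal 43 lay within the wild-type range.

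Ratios of 2 members within a library use no scaling factor, and they set single members of the compartments against each other. The count ratio of Hspa5 to Hspa9 was 0.335 to 0.445 in the 5 wild-type libraries at 8 weeks and 0.735 to 1.36, with a median of 1.03, in the 6 knockout libraries. At 2 weeks it was 0.639 to 0.729 in wild type and 0.69 to 0.74 in knockout, with overlap, so that the ratio lay lower at 8 than at 2 weeks in wild type. The ratio of Hspb1 to Hspd1 was 0.386 to 0.701 in wild type and 1.57 to 3.56 in knockout at 8 weeks, and 0.495 to 0.608 against 0.652 to 0.796 at 2 weeks, apart at both ages. The ratios carry no pool term, and at 2 weeks the pools were uneven. Pool A held every 2-week knockout library but that of animal 31, and of wild type only animals 21 and 23. Within either pool the 2-week knockout ratios of Hspb1 to Hspd1 lay above those of wild type. The ratio of Hspb8 to Hspa9 was 0.413 to 0.839 against 1.62 to 2.18 at 8 weeks and overlapped at 2 weeks, at 0.735 to 0.82 against 0.685 to 0.812. At 4 weeks knockout animal 8 held the highest of each of the 3 ratios, at 1.13, 3.53 and 1.64. Further ratios were computed. At 8 weeks that of Hspb7 to Hspa9 overlapped, at 0.341 to 1.21 in wild type and 1.17 to 2.97 in knockout. Those of Hsp90b1 to Hspa9 (0.203 to 0.285 against 0.345 to 0.585) and Hspa1b to Hspa8 (0.000683 to 0.0103 against 0.0142 to 0.0988) did not overlap. All of these ratios were picked with the fold changes known and are descriptions, with no test.

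**Figure D4:**
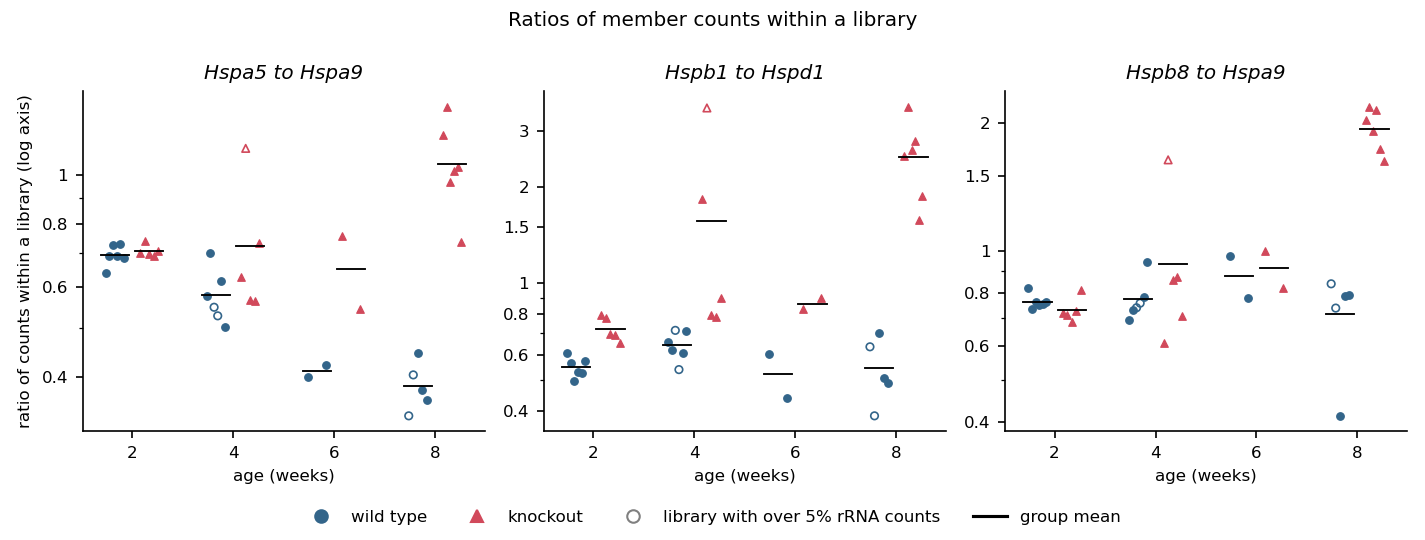
Ratio of counts within a library, on a log axis, against age in weeks for Hspa5 to Hspa9, Hspb1 to Hspd1 and Hspb8 to Hspa9, with 1 point per animal, open symbols for rRNA-rich libraries and black bars for group means. All knockout libraries lie above all wild-type libraries at 8 weeks in each of the 3 ratios shown, which do not depend on scaling. The ratio of Hspb7 to Hspa9, not shown, overlapped at that age.

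Before 8 weeks the contrast members had these levels. At 2 weeks knockout and wild type overlapped for Hspd1 (105 to 116 CPM against 100 to 131 CPM), Hspa9 (307 to 369 CPM against 328 to 377 CPM), Dnaja3 (99.35 to 118 CPM against 107 to 118.5 CPM) and Hspe1 (20.5 to 25.55 CPM against 23.08 to 26.8 CPM). Overlap at that age was also seen for Hsp90b1, Hspb2, Hspb3, Hspb6, Hspb7, Hspb8, Hspb11 and Dnajb9. Hspb1 at 2 weeks ran from 68.2 to 87.9 CPM in knockout and from 56.3 to 74.8 CPM in wild type, with a log2 difference of 0.17 (SE 0.25, adjusted p = 0.996 in edgeR). At 4 weeks the mitochondrial members overlapped again, for Hspd1 at 119 to 146 CPM against 120.5 to 157 CPM and for Hspa9 at 433 to 561 CPM against 424.5 to 496 CPM.

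At 6 weeks, with 2 animals in each group, both knockout libraries lay below both wild-type libraries for Hspa9 (380.1 and 479 CPM against 500.2 and 540.2 CPM), for Dnaja3 (113 and 134 CPM against 149.6 and 153 CPM) and for Hspe1 (21.35 and 27.9 CPM against 31.2 and 34.8 CPM). They lay above for Hspa5 (261 and 288 CPM against 199.7 and 228 CPM), for Hsp90b1 (147 and 157 CPM against 112.5 and 124 CPM), for Hspb7 (320.3 and 439 CPM against 184 and 184 CPM) and for Hspb6 (445 and 740 CPM against 314 and 323 CPM). None of these 7 passed the test at 6 weeks. With 2 libraries in each group such separation arises easily by chance. It was also seen for Hspd1, as given above, for Hspb1, with both knockout libraries above, and for Hspb2, with both below. Hspg2, Hspa8, Hspa4, Dnajc5 and Dnajc13, among other members, were separated too, and the share over all genes was not computed. Hspb8 was lower in both knockout libraries at that age, at 381 and 393 CPM against 420.2 and 487 CPM, and was not called.

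The wild-type course gives the levels against which these differences stand. Between 2 and 4 weeks 32 of 66 members rose and 4 fell, where 24.2% of all genes tested rose and 23.6% fell. But with library sizes alone 5 rose and 17 fell, beside 7977 of 16728 genes called in either direction. Under that scaling 17 of the 32 had the opposite sign and the median of all genes moved from -0.04 to -0.53. Dnajc21 went from 22 to 29.3 CPM at 2 weeks to 48.9 to 88.3 CPM at 4 weeks, a log2 fold change of 1.33 (SE 0.15, adjusted p = 2.08e-08 in edgeR). Dnajc27 rose by 1.03 (adjusted p = 3.71e-09), Dnajc28 by 0.91 (adjusted p = 4.2e-06), Dnajb5 by 0.97 (adjusted p = 4.12e-07), Dnajb9 by 0.94 (adjusted p = 3.55e-06) and Hspb6 by 1.24 (adjusted p = 0.000638). The mitochondrial members rose together by 0.30 to 0.44, each with the opposite sign at -0.04 to -0.18 under library sizes alone. The 4 that fell were Hspg2 (-0.85), Hspa12a (-0.55), Hspb11 (-0.40) and Hspa12b (-0.38).

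Between 4 and 8 weeks in wild type 11 members rose and 4 fell, beside 7.8% and 7.59% of all genes. With library sizes alone 1 rose and 1 fell, beside 878 of 16728 genes called in either direction. Dnajc27 (0.57, adjusted p = 0.000395) and Dnajb2 (0.53, adjusted p = 0.0012) rose further, and Hspb3 fell from 25.5 to 35.8 CPM at 4 weeks to 16.5 to 21.8 CPM at 8 weeks (-0.59, SE 0.14, adjusted p = 0.00418), without overlap. The rise of Dnaja4 (0.62, adjusted p = 0.0085) was lost without animal 36 (0.36, adjusted p = 0.0823), as was that of Hspa4l (0.63, and 0.43 with an adjusted p of 0.0517). Hspb6 rose by 0.90 (adjusted p = 0.0327) and lost that call when any of 5 single libraries was left out, wild-type animal 36 among them (0.73, adjusted p = 0.108).

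Of the 32 members that rose in wild type from 2 to 4 weeks, 20 fell in knockout at 8 weeks (62.5%) and 1, Hspb8, rose. Those 20 made up 74.1% of the 27 that fell. Over all genes tested the same shares were 64.2% of 4052 and 59% of 4405, so the share among risers was near the background. The 2 comparisons share no library. Across the 66 members Pearson's r between the log2 fold changes was -0.35, and across all 16728 genes tested it was -0.49, both as descriptions over genes, which are not independent. At 8 weeks the knockout levels of Dnajc21 (16.2 to 32 CPM) and Dnajc28 (10.1 to 17.6 CPM) spanned those of 2-week wild type (22 to 29.3 CPM and 11.4 to 13.1 CPM).

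**Figure D5:**
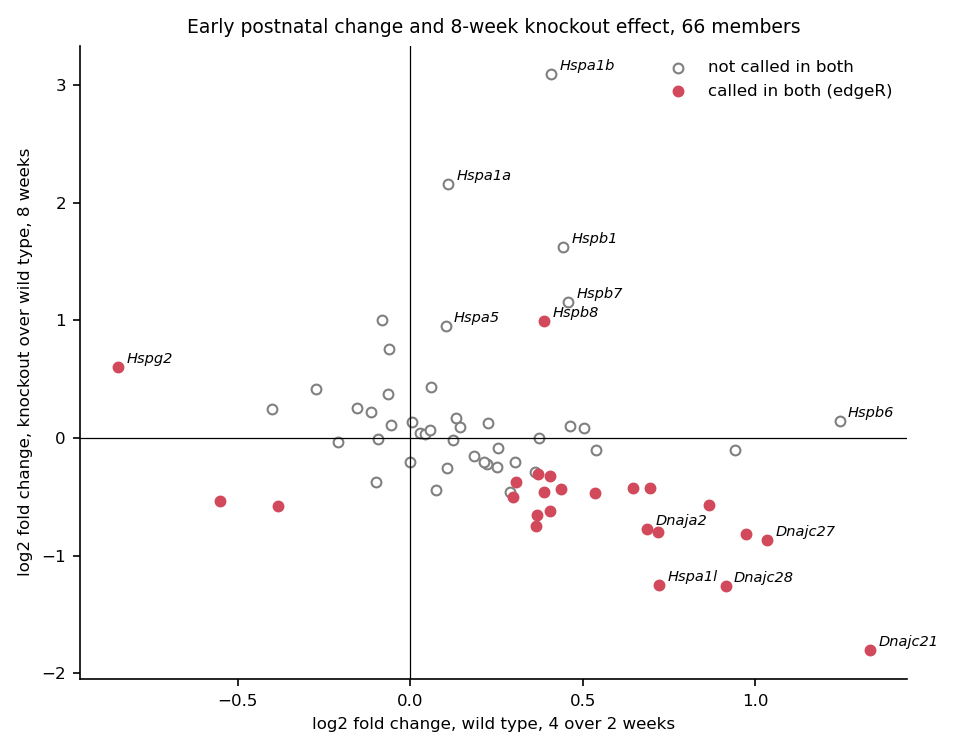
Log2 fold change of knockout over wild type at 8 weeks against the change in wild type from 2 to 4 weeks for the 66 members, filled where both comparisons were called in edgeR. Members that rose early in wild type mostly lie below 0 at 8 weeks after TMM scaling, 20 of 32 being called lower, and the directions depend on scaling as described.

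Genes of the same pathways outside the group were counted as well, to be read beside the 26.2% of all genes tested that rose and 26.3% that fell at 8 weeks. The genes named are those of smallest p in each list. In the reticulum unfolded protein response 19 of 27 genes rose at 8 weeks and 0 fell, with a median log2 fold change of 0.54 and a highest value of 2.48, among them the disulfide isomerases Pdia6 (0.92, adjusted p = 2.75e-08 in edgeR), Pdia3 (1.02, adjusted p = 1.42e-06) and P4hb (0.54, adjusted p = 1.99e-06) and Sdf2l1 (1.85, adjusted p = 5.39e-07). In mitochondrial protein quality control 2 of 22 rose and 12 fell, with a median of -0.26, among them the matrix protease Lonp1 (-0.61, adjusted p = 1.2e-07), the processing peptidase subunit Pmpca (-0.56), the disaggregase Clpb (-0.59) and the transcription factor Atf5 (-1.16, adjusted p = 2.79e-08), but with library sizes alone 14 rose, 0 fell and of these 4 genes only Atf5 stayed negative. Of 30 heat shock factors and cytosolic co-chaperones 1 rose and 19 fell, with a median of -0.28, among them Fkbp4 (-0.76, adjusted p = 1.9e-07), the myosin chaperone partner Smyd1 (-0.76, adjusted p = 1.42e-06), Chordc1 (-0.76) and St13 (-0.40), but with library sizes alone 23 rose, 0 fell and these 4 were positive. The reticulum list then had 27 of 27 higher, with a median of 1.36 against 0.55 for each of the other 2 lists. Under that scaling 11219 of all 16728 genes tested were called in either direction, and their median over all genes was 0.82.

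In the integrated stress response 7 of 16 rose and 3 fell at 8 weeks, with asparagine synthetase Asns (2.12, adjusted p = 9.55e-08), Mthfd2 (1.54) and Psat1 (1.79) higher and Vldlr (-1.23) lower. Of 14 subunits of the cytosolic chaperonin and prefoldin 1 rose (Cct3, 0.45) and 3 fell (Pfdn6 at -0.71, Vbp1 at -0.52 and Pfdn1 at -0.58), with a median of 0.04, and all 3 had the opposite sign with library sizes alone. These shares, 7.14% and 21.4%, lay below those of all genes. In chaperone-assisted selective autophagy, which Hspb8 serves, 3 of 9 rose, Flnc (0.90, adjusted p = 0.0133) and Vps18 (0.45) among them, and 3 fell, Synpo2 (-1.07) and Map1lc3b (-0.51) among them, of which Map1lc3b was at 0.32 with library sizes alone. Rises and falls each made up 33.3% of this list, near the shares of all genes. At 4 weeks the heat shock list had 3 rises (10%) and 1 fall (3.33%), beside 2.46% and 3.19% of all genes tested. With library sizes alone it had 1 rise and 0 falls. In the main fit the small heat shock protein Cryab was at 1.30 (adjusted p = 0.0017 in edgeR), Fkbp5 at 1.44 (adjusted p = 0.0059), Bag3 at 0.54 (adjusted p = 0.0251) and Ppid at -0.56 (adjusted p = 0.0218). These genes were not examined without rRNA-rich knockout animal 8. None of the 27 reticulum genes was called at 4 weeks, where 7 had an unadjusted p under 0.05 in edgeR.

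The cell types in the muscle moved with the 8-week comparison as well. All 10 macrophage markers rose, with a summed level of 67.4 to 102 CPM in wild type and 576 to 1300 CPM in knockout. All 6 markers of satellite cells and regeneration rose, from 27.8 to 74.6 CPM to 355 to 1480 CPM. Of 7 fibre markers 1 rose and 5 fell, with a sum of 66900 to 149000 CPM in wild type and 40500 to 110000 CPM in knockout, and 6 of 7 slow-fibre markers fell. The slow-fibre sum was 18900 CPM in wild-type animal 36 and 1637 CPM or less in the other wild-type libraries. In knockout it was 592.1 to 1114 CPM. Wild-type animal 38 lay below every knockout library and wild-type animals 34, 35 and 37 lay above, so much of the difference in sums lay in animal 36. With library sizes alone 2 fibre markers rose and 1 fell, and 4 slow-fibre markers fell. Among fibroblast markers 3 of 7 rose and 1 fell, and all 4 Schwann cell markers and 2 of 3 fat cell markers fell. Scaled by library sizes alone, 6 fibroblast markers rose and 0 fell, 2 Schwann cell markers fell and no fat cell marker was called. Of the 6 lymphocyte markers and the 2 neutrophil markers that could be tested none was called in the main fit, with 1 and 0 at an unadjusted p under 0.05 in edgeR. The lymphocyte marker Cd3g was at 0 in every 8-week wild-type library, and the neutrophil marker Ly6g in every 8-week library of both genotypes. At 4 weeks knockout animal 8, highest for Hspb1, Hspb6, Hspb7 and Hspb8, also had the highest macrophage sum of its group, at 360 CPM. The part of these markers in the differences of the chaperone genes was not tested.

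Promoter elements and 8-week calls can be read side by side. Of the 15 members with a pair of heat shock units 5 rose, 4 fell and 6 were not called, and of all 54 members with a window 10 rose and 22 fell. Over all genes tested 26.2% rose and 26.3% fell. Of the 4 with a run of 3 units 3 fell, Hspd1, Hspe1 and Dnajb6, and Hsph1 was not called. Those 3 had the opposite sign with library sizes alone, and Hspd1 and Hspe1 share the same site, so they are not separate cases. Of the 3 with the reticulum stress element, Hspa5 and Hsp90b1 rose and Dnajc3 was not called. A match is a description of letters in a window and no measure of binding.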

How the data were processed

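RNA from gastrocnemius muscle was sequenced as 37 libraries. The deposited values are raw counts per gene, which the authors made with STAR 2.5.2b, featureCounts 1.5.2 and the mm10 build, per the submitters' processing notes, which also name edgeR 3.22.0. Strand handling of the counting is not given in the sources used here, so overlapping genes cannot be told apart. Identifiers were matched to GENCODE vM21 (50462 of 50686), and promoters came from RefSeq GRCm38.p6.

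Counts were fitted in edgeR 4.0.16 (R 4.3.3) with 8 groups and the sequencing pool as terms, filterByExpr (minimum count 10, total 15), TMM factors (0.443 to 1.59) and robust quasi-likelihood tests, with Benjamini-Hochberg adjustment over all genes tested and a threshold of 0.05. CPM values use TMM-scaled library sizes. RPKM values are CPM per kilobase of merged exons. The fit left 28 residual degrees of freedom. The fit was tested on simulated data. The members and all gene lists were chosen with earlier results of these data known. Named were the mitochondrial, reticulum and small members, the called members with the smallest p (up to 10 in each direction of a comparison) and up to 4 genes of smallest p per pathway list. Other members named, such as Dnajc3, Hspa8, Dnajb6 and Dnajc15, and the count ratios were chosen after their values were seen. Alternatives were other scaling, a fit of unfiltered genes, a fit that ignored the pool, either pool by itself, sex as a term, only the groups compared, DESeq2 1.42.0 and each library left out, and, chosen after seeing the data, sets of doubtful libraries left out.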

Additional observations from a re-analysis of the deposited data

Results flagged for a closer look

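Among the mitochondrial, reticulum and small members, 8 of 84 groups held a library far from the rest of its group, by a criterion that chance meets in about 1 in 20 groups. At 8 weeks, wild-type animal 36 held 274.5 CPM of Hspa5, where the other wild-type libraries held 173.4 to 194.6 CPM, and 747.5 CPM of Hspb7, where they held 170.6 to 279 CPM. The same library had the highest slow-fibre marker sum, at 18900 CPM. Knockout animal 40 held 403.2 CPM of Hspb1, where the other 8-week knockout libraries held 152.2 to 244.5 CPM. Knockout animal 41 held 34.96 CPM of Hspb3, against 23.25 to 26.99 CPM.

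At 4 weeks, knockout animal 8, in which rRNA genes took 29.3% of counts, held 1483 CPM of Hspb6, against 224.9 to 490.3 CPM in its group, and 743.3 CPM of Hspb8, against 342 to 392.1 CPM. At 2 weeks, knockout animal 31 held 307.1 CPM of Hspa9, against 352.8 to 369.4 CPM, and knockout animal 30 held 223.5 CPM of Hspb7, against 174.6 to 182.3 CPM.

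The knockout effect at 8 weeks minus that at 4 weeks passed the test in edgeR for 5 members of these groups. It was -0.39 for Hspd1, -0.53 for Hspa9 and -0.38 for Dnaja3, which are positive with library sizes alone, and 0.57 for Hspa5 and 0.68 for Hspb8. The calls for Hspd1, Dnaja3 and Hspa5 were also lost under other settings, as described above.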

How the results depend on the processing

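DESeq2 kept the call and direction of all 85 named values, RLE size factors ended 3 calls, and no pool term ended 1. Of 1133 named values refitted without 1 library, 96 lost their call and 0 turned. Members called then ranged from 0 to 0 at 2 weeks, 2 to 8 at 4 weeks, 0 to 4 at 6 weeks and 35 to 42 at 8 weeks, from 31 to 36 for wild type at 4 against 2 weeks, 10 to 15 for 8 against 4 weeks and 17 to 29 for the difference of effects, lowest without wild-type animal 37 and highest without wild-type animal 36.

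Numbers of members called moved as follows, and the cause was not tested. Library sizes alone gave 3 at 4 weeks, 0 at 6 weeks, 22 for wild type at 4 against 2 weeks and 2 at 8 against 4 weeks. No filter gave 3 at 4 weeks, 9 for 8 against 4 weeks and 14 for the difference. Pool A alone gave 1 at 6 weeks, 22 at 8 weeks (12 higher and 10 lower), 14 and 0 for the wild-type steps and 7 for the difference. Pool B alone gave 0 at 4 and 0 at 6 weeks and 9 for 8 against 4 weeks. Sex as a term, from 4 weeks on, gave 0 at 4 and 0 at 6 weeks, 6 for 8 against 4 weeks and 16 for the difference. Without the 5 rRNA-rich libraries 0 were called at 4 weeks and 9 for 8 against 4 weeks, and without these and wild-type animal 36 the numbers were 2 at 4 weeks, 7 at 6 weeks and 8 for 8 against 4 weeks. With the 3 libraries of mismatched sex left out, 3 were called at 4 weeks. Fitting only the groups compared gave 0 at 4 weeks, 8 for 8 against 4 weeks and 13 for the difference.

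Library sizes alone also turned 22 named values. At 8 weeks these were Dnaja2 (0.075), Dnajc19 (0.082), Dnajb5 (0.037), Dnajc2 (0.029), Hspd1 (0.367), Dnajc8 (0.160), Hspa9 (0.356), Dnaja3 (0.458) and Hspe1 (0.398). In wild type from 2 to 4 weeks they were Hspa9 (-0.100), Hspb8 (-0.090), Dnaja3 (-0.177), Hspd1 (-0.183), Hspb2 (-0.027) and Hspe1 (-0.040). For the difference they were Dnaja2 (0.194), Hspa9 (0.269), Dnajb6 (0.276), Dnajb12 (0.298), Dnajc8 (0.248), Dnaja3 (0.422) and Hspd1 (0.474).

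No paired analysis was possible because the groups share no animal numbers. The 6-week groups hold 2 libraries each, and the lowest total, 5192700 counts, is that of wild-type animal 34 at 8 weeks.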
